A study of Mus musculus with 4 samples.

Results

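The E2F and pocket protein family was described here by 10 genes: the activator E2Fs E2f1, E2f2 and E2f3, the repressor E2Fs E2f4, E2f6, E2f7 and E2f8, and the pocket protein genes Rb1, Rbl1 and Rbl2. Members were taken by gene symbol from a list made with earlier results of these data known, and all 10 were found among the 19505 genes with a symbol on the array. The cells were CD8+ T cells of C57/BL6 mice, isolated from spleen and lymph nodes and stimulated for 3 days with beads that carry antibodies to CD3 and CD28, in medium with IL-2. Control cultures were left untreated and treated cultures received spermidine, a polyamine, at 25 µM. Stimulus, IL-2 and culture time were common to both groups. RNA of 2 control and 2 spermidine samples was measured on Clariom S Mouse arrays, and values are log2 signals, given in the order of replicates 1 and 2. The titles say biological replicate and name neither animal nor culture; p-values measure only the spread between these samples, which may be technical.

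E2F proteins bind DNA as pairs with a DP protein and set the transcription of genes for entry into S phase. Pocket proteins (RB, p107 and p130, the products of Rb1, Rbl1 and Rbl2) bind E2Fs and hold these genes off until cyclin-dependent kinases phosphorylate them. E2F7 and E2F8 repress the same genes later in the cycle without a DP partner or a pocket protein, and E2F6 represses together with Polycomb proteins. Several family genes are themselves E2F targets, so that E2f1, E2f2, E2f7, E2f8 and Rbl1 are known as genes of cycling cells, whereas Rbl2 is known for its high level in resting lymphocytes. The comparison addressed how the family differed in activated CD8+ T cells cultured with spermidine.

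With spermidine, the activators, E2f4, E2f7, E2f8 and Rbl1 had lower mean signals, and Rb1, Rbl2 and E2f6 higher ones, so that 7 of 10 were lower against 50.9% of all features. The differences were small, from 1.64-fold lower for Rbl1 to 1.31-fold higher for Rbl2. In 8 of the 10 members the groups did not overlap: both spermidine arrays lay below both control arrays in 5 and above them in 3. Across all 22206 gene features the same was so for 18.4% below and 18.3% above. Of these features 12992 had a control mean below the level of background probes, against 0 members. Shares over all features thus come mostly from dim ones, and the share among features as bright as the members was not worked out. None of the differences passed the test (limma, Benjamini-Hochberg over all features, threshold 0.05): 0 of 10 members were called, and 0% of all features. At an unadjusted p under 0.05, 2 members were lower, E2f1 and Rbl1, against 3.64% of all features lower and 3.38% higher. The median log2 difference was -0.29 over the members and -0.01 over all features. With 2 arrays in each group the smallest p that an exact permutation test can give is 0.333, and no such test was made. In simulated data the limma test recovered 3.88% of 2-fold changes. The lack of calls thus says little about differences as small as those of the members.

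**Figure D1:**
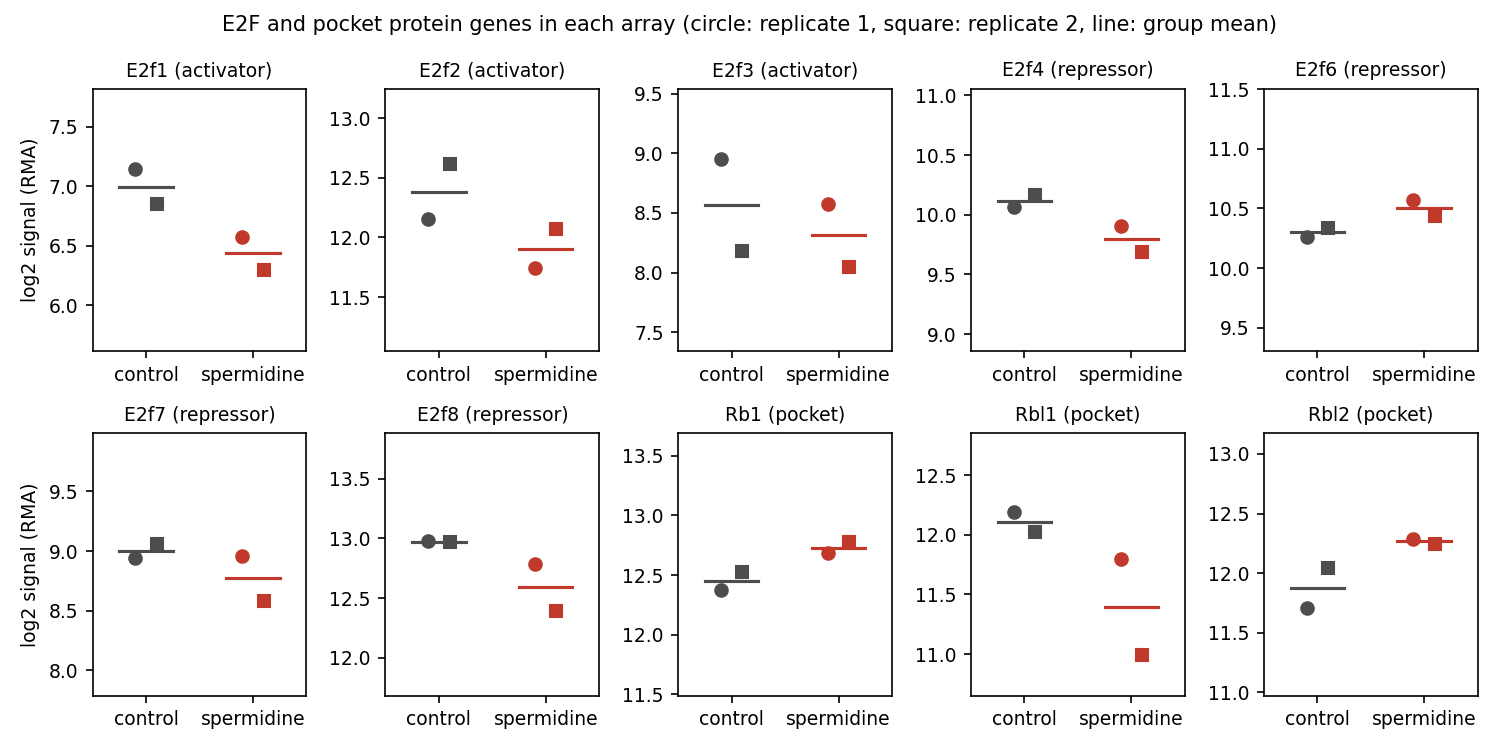
Log2 signal (vertical axis, each panel spanning the same range around its own mean) of the 10 genes in the 2 control arrays (grey) and 2 spermidine arrays (red), with circles for replicate 1, squares for replicate 2 and lines for group means. The groups overlap in E2f3 and E2f7; the spermidine arrays lie higher in E2f6, Rb1 and Rbl2 and lower in the other panels.

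Promoter sequence was set beside these values because E2F genes are targets of E2Fs. RefSeq windows of build GRCm38.p6, 250 bases before to 50 after a transcript start, were used for 8 of the 10 genes (not E2f4 and Rb1) in 10 windows. An E2F site was searched as TTTCCCGC, TTTGGCGC, TTTCGCGC or TTTGCCGC and a CHR element, the site through which the MuvB complex binds late cell cycle genes, as TTTGAA or TTCGAA, both on either strand; these motifs do not overlap in the stretches shown. The first motif was in 4 of the 10 windows, those of 4 of the 8 genes (Rbl1, E2f3, E2f7 and E2f2), and in 2.26% of all 32851 windows. The second was in 4 of the 10 windows, those of E2f2, E2f3, E2f8 and Rbl2, and in 19.2% of all windows. The E2F and CHR matches of E2f2 lay in windows of different transcript starts. The windows of the members had a median GC content of 65.3%, against 52.7% over all windows. The stretches with a match upstream of the start are shown for the gene with the lowest difference (Rbl1), the gene with the highest (Rbl2), and 3 E2F genes, 5′ to 3′ on the strand of the gene with motif letters in capitals.
Rbl1: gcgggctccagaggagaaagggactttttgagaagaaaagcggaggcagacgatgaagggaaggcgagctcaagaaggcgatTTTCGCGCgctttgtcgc
E2f3: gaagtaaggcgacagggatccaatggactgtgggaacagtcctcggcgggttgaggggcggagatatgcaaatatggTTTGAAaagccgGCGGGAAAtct
E2f7: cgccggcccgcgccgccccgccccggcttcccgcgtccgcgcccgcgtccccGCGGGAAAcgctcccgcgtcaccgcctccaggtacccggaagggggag
E2f8: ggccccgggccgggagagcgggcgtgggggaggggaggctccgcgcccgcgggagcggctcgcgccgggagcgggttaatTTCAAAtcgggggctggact
Rbl2: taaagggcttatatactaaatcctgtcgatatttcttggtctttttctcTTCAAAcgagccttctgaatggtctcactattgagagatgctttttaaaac
The stretch of Rbl1 is chr2:157204535-157204634 (minus strand) and that of E2f3 is chr13:29986064-29986163 (minus strand), each the 100 bases before the start. E2f7 is shown at chr10:110745189-110745288 (plus strand) and Rbl2 at chr8:91069807-91069906 (plus strand), from 250 to 151 bases before the start. E2f8 is shown at chr7:48881597-48881696 (minus strand), the 100 bases before its start. The match of E2f2 to TTTGGCGC lay after the start, at bases 40 to 47. The genes with an E2F match (Rbl1, E2f2, E2f3 and E2f7) had lower mean signals with spermidine. Of those whose windows held none, E2f1 and E2f8 were lower and E2f6 and Rbl2 higher. The groups overlapped in E2f3 and E2f7, and a link between motif and direction was not tested. With the shorter core GGCGGGAA or GGCGCGAA, only the window of E2f3 among the members had a match, against 2.7% of all windows.

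E2f1 encodes the activator whose level rises as cells pass from G1 into S phase. Its log2 signal was 7.14 and 6.85 without spermidine and 6.57 and 6.30 with it. Both spermidine arrays were thus lower than both controls, and the second of them lay just below the background level of 6.35, the mean 95th percentile of probes that match no genomic sequence. The group means were 6.99 ± 0.21 (SD, n = 2) and 6.44 ± 0.19 (SD, n = 2). The log2 difference was -0.56 ± 0.24 (SE), or 1.47-fold lower in 2 of 2 arrays, with an adjusted p of 0.706 by limma. So close to background a signal difference may misstate the fold.

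E2f2 encodes the activator with a known part in limiting T cell proliferation. Its signal was 12.15 and 12.61 without spermidine and 11.74 and 12.07 with it. The groups did not overlap, but the lower control lay only just above the higher spermidine array. The log2 difference of -0.47 ± 0.26 (SE) was about as large as the gap of 0.46 between the controls (adjusted p = 0.755, limma). It was -0.24 when control replicate 2 was left out and -0.31 when spermidine replicate 1 was. Without control replicate 1 it was -0.71 and without spermidine replicate 2 it was -0.64.

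E2f3, the third activator, was measured by a pair of features annotated to different transcripts. The brighter of them, whose identifier is marked as unmapped, was used for the gene. It read 8.95 and 8.18 without spermidine and 8.58 and 8.05 with it. The groups overlapped, and replicate 1 was the higher array in each group. The log2 difference was -0.26 ± 0.32 (SE) (adjusted p = 0.907, limma), and it turned positive without control replicate 1 (0.13) or without spermidine replicate 2 (0.01). The dimmer feature read 8.12 and 7.27 against 7.65 and 6.81, with the same order of arrays and a difference of -0.46 ± 0.37 (SE).

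E2f4 encodes the repressor that carries pocket proteins to promoters in resting and early G1 cells. Its signal was 10.06 and 10.16 without spermidine and 9.91 and 9.68 with it, lower in 2 of 2. The log2 difference was -0.32 ± 0.23 (SE; adjusted p = 0.817, limma), and -0.20 without spermidine replicate 2. E2f6, the E2F of the Polycomb complex, went the other way, with 10.26 and 10.34 without spermidine and 10.57 and 10.44 with it. Both spermidine arrays were above both controls by a narrow margin, with a difference of 0.20 ± 0.22 (SE; adjusted p = 0.888, limma).

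E2f7 and E2f8 encode the atypical repressors, which close the wave of E2F transcription and repress E2f1 itself. E2f7 read 8.94 and 9.06 without spermidine and 8.96 and 8.58 with it. Spermidine replicate 1 lay between the controls, so the groups overlapped and the difference of -0.23 ± 0.24 (SE) rested on spermidine replicate 2: it was -0.04 without that array and -0.42 without the other (adjusted p = 0.882, limma). E2f8 read 12.98 and 12.97 in the control arrays, the closest pair of any member, and 12.79 and 12.39 in the spermidine arrays. Both spermidine arrays were lower, replicate 2 by more, and the log2 difference was -0.38 ± 0.24 (SE; adjusted p = 0.800, limma), with -0.18 without spermidine replicate 2 and -0.58 without spermidine replicate 1.

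The pocket protein genes were not alike. Rbl1, which encodes p107, the pocket protein of cycling cells, read 12.19 and 12.03 without spermidine and 11.80 and 10.99 with it. Both spermidine arrays were lower, and they lay further apart (0.81) than the group means did. The log2 difference was -0.71 ± 0.30 (SE), 1.64-fold lower and the largest of the members, with an adjusted p of 0.706 (limma); it was -0.31 without spermidine replicate 2 and -1.12 without spermidine replicate 1.

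Rbl2 encodes p130, the pocket protein of resting cells, which joins E2F4 and the MuvB core in the DREAM repressor complex. Its signal was 11.71 and 12.05 without spermidine and 12.29 and 12.25 with it. The spermidine arrays were close together and above both controls. The difference was 0.39 ± 0.23 (SE), 1.31-fold higher in 2 of 2 arrays (adjusted p = 0.782, limma), and 0.22 without control replicate 1. Rb1, the retinoblastoma gene, read 12.37 and 12.53 without spermidine and 12.68 and 12.78 with it. Both spermidine arrays were higher here too, with a difference of 0.28 ± 0.22 (SE; adjusted p = 0.838, limma) that lay between 0.20 and 0.36 without any 1 array.

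**Figure D2:**
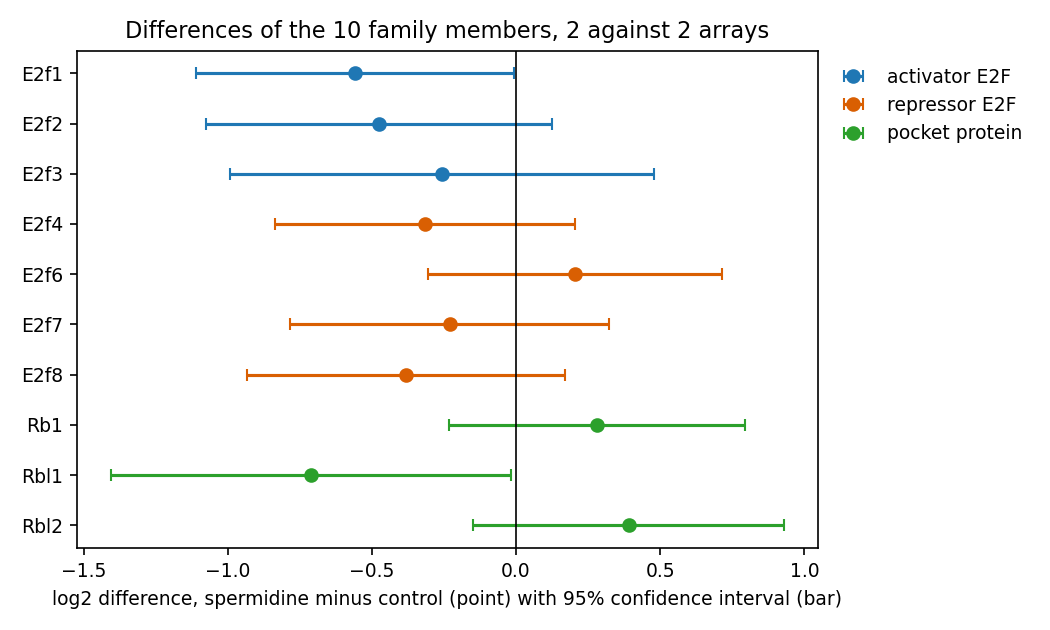
Log2 difference of group means, spermidine minus control (horizontal axis), of the 10 genes, with 95% confidence intervals from limma and colours for activator E2Fs, repressor E2Fs and pocket proteins. The intervals of E2f1 (-1.11 to -0.01) and Rbl1 (-1.40 to -0.02) end just below 0 before adjustment for the number of features, and the other 8 include 0.

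Rbl1 and Rbl2 had the lowest and the highest difference of the family. Their contrast was chosen after the values were seen and is given without a test. In each array the signal of Rbl1 was set against the mean of Rbl2 and Rb1, and only its shift between arrays has a meaning, since probes of different genes are not on a common scale. It was 0.15 and -0.26 without spermidine and -0.69 and -1.52 with it, a shift of -1.05. The groups did not overlap, which the choice fixed, since both spermidine arrays lay lower in Rbl1 and higher in Rbl2 and Rb1. The shift was -0.63 without spermidine replicate 2 and -1.46 without spermidine replicate 1.

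Activators were then set against repressors in the same way, as a description with no test. The mean signal of E2f1, E2f2 and E2f3 minus that of the 7 repressors and pocket proteins was -1.80 and -2.09 without spermidine and -2.32 and -2.21 with it. The balance was thus lower in both spermidine arrays, by -0.32 in all, made of -0.43 for the activators and -0.11 for the other members. It stood at -0.18 without control replicate 1 and at -0.46 without control replicate 2. Against the 3 pocket proteins alone the shift was -0.42, since their opposite differences averaged to -0.01, and it was -0.26 without control replicate 1. Against the 4 repressor E2Fs it was -0.25, with -0.11 without control replicate 1 and -0.38 without control replicate 2, and against E2f7 and E2f8 alone -0.12, where the groups overlapped and the shift ran from -0.25 without control replicate 2 to 0.00 without control replicate 1, with -0.24 and -0.01 when spermidine replicate 2 or 1 was left out. Against the atypical repressors the shift was thus smaller than the spread between arrays.

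**Figure D3:**
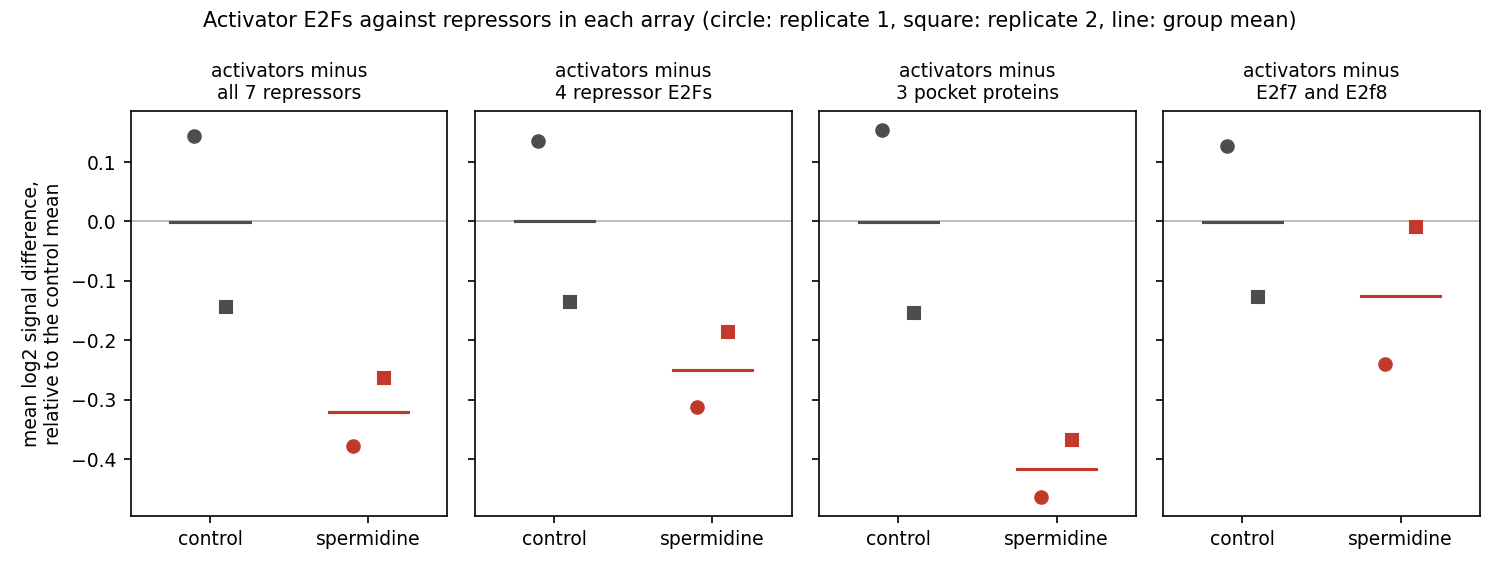
Mean log2 signal of E2f1, E2f2 and E2f3 minus the mean of the repressors named above each panel, in each array, relative to the control mean (vertical axis; circles replicate 1, squares replicate 2, lines group means). The spermidine means lie at -0.32, -0.25, -0.42 and -0.12 from left to right, and the groups overlap in the last panel.

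The genes around the family were described by 9 lists, 95 gene names of which 86 were measured. None passed the test (0 lower and 0 higher after adjustment over all features by limma), and at an unadjusted p under 0.05, 26 were lower and 1 higher, against 3.64% and 3.38% of all features. The list of G1/S targets of E2F had 36 of 37 measured genes with lower means, 26 of them with both spermidine arrays below both controls and 0 above, against 18.4% and 18.3% of all features. Its median log2 difference was -0.68, with Gins1, a subunit of the replicative helicase, at -0.99 ± 0.27 (SE), the chromatin assembly gene Chaf1b at -0.79 ± 0.25 (SE), the helicase gene Mcm3 at -0.75 ± 0.22 (SE) and the initiation factor Mcm10 at -0.74 ± 0.22 (SE). The median was -0.30 without spermidine replicate 2 and -1.04 without spermidine replicate 1. In bulk samples fewer cycling cells and less RNA per cell cannot be told apart, for the members as for these targets.

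Kinases that phosphorylate pocket proteins, with their cyclins, were lower in 6 of 8 genes (median -0.56). The S phase cyclin Ccna2 read 14.64 and 13.96 without spermidine and 13.62 and 12.24 with it, a difference of -1.37 ± 0.44 (SE). Its kinase partner Cdk2 stood at -0.92 ± 0.29 (SE), the D-type cyclin Ccnd3 at -0.66 ± 0.23 (SE) and the E-type cyclin Ccne1, itself an E2F target, at -0.68 ± 0.35 (SE). These genes were named for the size of their moderated statistic. Of the 8 genes, both spermidine arrays lay below both controls in 4 and above them in 1, against 18.4% and 18.3% of all features. In the other 3, Ccne1 among them, the groups overlapped. The list median was -0.18 without spermidine replicate 2 and -0.97 without spermidine replicate 1.

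Among the CDK inhibitors, which act against these kinases, 2 of 7 were lower and the median was 0.02, which ran from -0.03 without control replicate 1 to 0.06 without spermidine replicate 2. Cdkn2c, an inhibitor of CDK4 and CDK6 and a known E2F target, read 9.95 and 9.61 in the control arrays against 9.05 and 8.79, a difference of -0.86 ± 0.24 (SE), and Cdkn2d stood at -0.76 ± 0.23 (SE). In both genes the spermidine arrays lay below both controls, and in Cdkn1a and Cdkn1c above them, against 18.4% and 18.3% of all features. In the other 3 inhibitors the groups overlapped. Cdkn1a stood at 0.14, Cdkn1b at 0.01, Cdkn1c at 0.33, Cdkn2b at 0.12 and Cdkn2a at 0.02, the last 3 with both means below the background percentile, where a difference says little. Over the 4 inhibitors at or above the median level of features the median was -0.37. It lay between Cdkn2c and Cdkn2d, which were lower, and Cdkn1a and Cdkn1b, which were not.

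The DP genes, whose proteins pair with E2F1 to E2F6, overlapped between groups, with Tfdp1 at -0.18 and Tfdp2 at -0.16, and their median of -0.17 became 0.14 without spermidine replicate 2 and -0.48 without spermidine replicate 1. Of the MuvB core with MYBL2, 5 of 6 genes had lower means (median -0.31): Lin9 -0.41, Lin54, its DNA-binding subunit, -0.38, Mybl2, the partner in cycling cells, -0.37, Rbbp4 -0.24, Lin37 -0.01 and Lin52 0.11. In the first 4 of these both spermidine arrays lay below both controls, against 18.4% of all features. The median was -0.18 without spermidine replicate 2 and -0.20 without control replicate 1. Genes that act in ubiquitin-dependent turnover of E2Fs and cell cycle proteins were lower in 5 of 5 (median -0.67), with Cdc20 at -1.26 ± 0.32 (SE), Cks1b at -1.24 ± 0.44 (SE), the APC/C inhibitor Fbxo5 at -0.67, the APC/C activator Fzr1 at -0.64 and Skp2 at -0.64. Their median was -0.35 without spermidine replicate 2 and -1.20 without spermidine replicate 1.

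Corepressors that pocket proteins recruit went in both directions, 5 of 9 lower and 4 higher (median -0.23, with -0.05 without spermidine replicate 2 and -0.14 without control replicate 2). The demethylase Kdm5a, which binds RB, read 9.25 and 9.13 without spermidine and 10.01 and 9.73 with it, a difference of 0.68 ± 0.23 (SE), and Arid4b stood at 0.49 ± 0.22 (SE). The deacetylases Hdac2 and Hdac3 stood at -0.82 ± 0.37 (SE), with overlapping groups, and -0.55 ± 0.23 (SE). In the E2F6 complex 4 of 9 genes were lower (median 0.01, with -0.21 and 0.09 when control replicate 2 or 1 was left out and -0.13 and 0.09 when spermidine replicate 1 or 2 was). Mga, whose protein holds E2F6 in that complex, stood at 0.33 ± 0.22 (SE), next to L3mbtl2 at -0.49, Rybp at -0.34 and Cbx3 at -0.58.

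Germline genes that E2F6 is known to repress were at or near background: Slc25a31, Stag3, Smc1b and Tuba3a had both means below the background percentile. Tuba3b read 6.94 and 6.91 without spermidine and 6.29 and 6.74 with it, and the list median was -0.15 (0.03 without control replicate 2 and -0.35 without control replicate 1). Both spermidine arrays lay below both controls in 1 of the 5 genes, Tuba3b, and above them in 0, against 18.4% and 18.3% of all features.

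**Figure D4:**
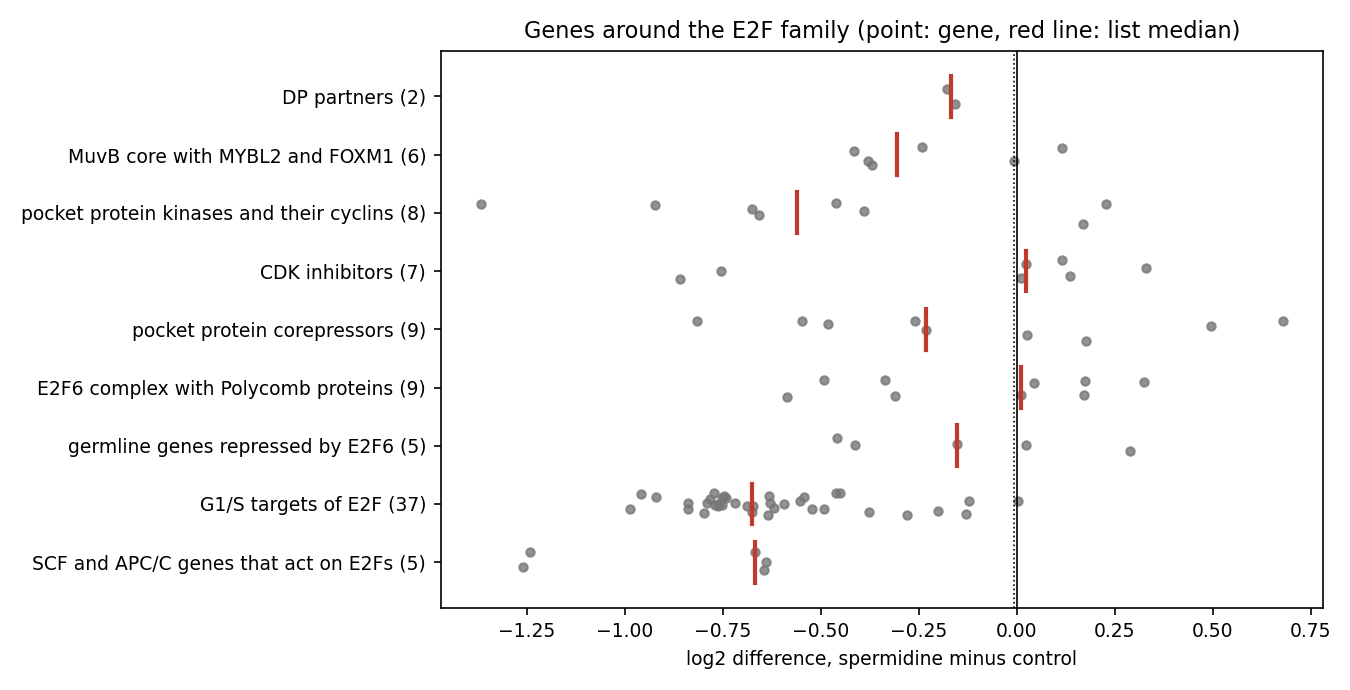
Log2 difference, spermidine minus control (horizontal axis), of each gene (point) in the 9 lists, with the number of measured genes in brackets, the list median as a red line, 0 as a solid line and the median of all features as a dotted line. The medians of the G1/S targets (-0.68) and of the SCF and APC/C genes (-0.67) lie furthest below 0, and those of the CDK inhibitors (0.02) and the E2F6 complex (0.01) at it.

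The genes with array profiles most like those of the members at either end were sought among 9663 named genes at or above the median level, by the Euclidean distance over 4 arrays between profiles centred on their own means. For Rbl2 they were Zfp871 (0.03), Dnm3 (0.05) and Jakmip1 (0.05), against a median distance of 0.63. For Rbl1 they were Rasgrp2 (0.05), Rcbtb2 (0.07) and Syce2 (0.07), against a median of 0.92. The smallest of so many distances over 4 arrays lie far below the median by the search itself, and shared regulation was not tested.

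Array medians ran from 5.13 to 5.25, and pairs of arrays correlated across features at 0.989 to 0.994. The markers of CD8+ T cells, the labelled cell type, were bright, 7 of 7 measured with mean signals of 11.62 or more. With spermidine 1 of 7 was higher, and in 4 (Cd8a, Cd8b1, Cd3d and Cd3g) both spermidine arrays lay below both controls, against 18.4% of all features. The mean log2 difference of the 7 markers was small, -0.14, and 0 were called. Their summed linear signals were 335599 to 370560 in the control arrays and 296009 to 308484 in the spermidine arrays. Of the B cell markers, 6 of 6 measured were higher with spermidine, with summed linear signals of 400.0 to 435.6 in the control arrays and 506.2 to 658.5 in the spermidine arrays; 4 of the 6 had both means below the background percentile. Of the macrophage markers 4 of 6 were higher, with sums of 72.1 to 81.5 and 88.2 to 100.6, and 6 of 6 had both means below it. Of the CD4+ T cell, NK cell, dendritic cell, and erythroid and platelet markers, 1 of 2, 2 of 3, 3 of 4 and 2 of 2 were higher. The hybridisation spikes, control transcripts added to the hybridisation, were also higher with spermidine, by 0.45 on the log2 scale, and so were the labelling spikes, by 0.43, at mean signals below the background percentile in each array. The part of any of these in the differences of the members was not tested. The number of arrays limits the precision: the median SE of a log2 difference was 0.246.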

How the data were processed

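RNA of 4 samples, 2 control and 2 spermidine, was measured on Clariom S Mouse arrays from 250 ng total RNA, per the labels' protocols. The submitters' processing notes name Affymetrix Expression Console and RMA, without versions, and the deposited values are the authors' log2 signals. RMA subtracts background, equalises array quantiles and combines probes. The highest signal of an array was 19.74 to 19.93, and whether the values were rescaled beyond RMA is not known. How far differences of dim features were compressed or expanded is thus not known either. The log2 base was inferred from the values. For the probe annotation no build is named in the sources used here.

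Of 28846 features, 6640 controls were left out and 22206 were tested in R 4.3.3 with limma 3.58.1 (lmFit, eBayes, ~ group, two-sided, Benjamini-Hochberg over all features); 19572 had 1 symbol and 2634 none. The brightest feature stood for a gene. The test was checked on simulated data. The members and lists were chosen with earlier results of these data known. Named genes were all members, up to 4 genes per list by the size of the moderated statistic, every gene of lists with 7 or fewer, and the 3 nearest profiles of the members at either end. Alternatives were a prior with intensity trend, a robust prior, array weights, 3 further normalizations, 2 filters on level, 1 feature per symbol, a replicate block, the other E2f3 feature, an unadjusted threshold and leaving out each array. Arrays have no sequencing depth, and their number limits the precision.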

Additional observations from a re-analysis of the deposited data

How the results depend on the processing

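No member was called under any of the alternatives that kept the adjusted threshold, and the 86 pathway genes likewise had 0 calls; at an unadjusted p under 0.05 there were 2 members, 27 pathway genes and 1558 of all features, in limma. The count over all features became 1, Hmox1, which is no member, with an intensity trend in the prior, after median centring, after cyclic loess, among features at or above the median level, and with the replicate block. The replicate numbers share only a number in the titles: deviations from the group means correlated at 0.21 between same-numbered arrays, and with the replicate block 0 members were called and the balance of activators against repressors stayed at -0.32. That balance ran from -0.39 to -0.32 over the other alternatives with all arrays, -0.39 being its value with the other E2f3 feature, and from -0.46 to -0.18 without 1 array, where an array left alone in its group is assumed to vary like the other group. E2f3 turned positive without control replicate 1 and without spermidine replicate 2, with values from -0.64 to 0.13 without 1 array. The other 9 members kept their direction under each alternative run. The alternatives with the other E2f3 feature, the unadjusted threshold for members and lists, and the contrast of Rbl1 with Rbl2 and Rb1 were chosen after seeing the data.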
